A study of Arabidopsis lyrata with 3 samples.

Results

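Strong SEPALLATA3 (SEP3) windows on the chromosome arms of Arabidopsis thaliana are described here: 913 regions of 14707 in the list deposited for that species. They were chosen by the authors' score and by position. A window was taken if its score was 5 or more and its summit lay outside 5 pericentromeric intervals, 1 per chromosome. The intervals ran from 12.5 to 17.5 Mb on chromosome 1, 1.5 to 6 Mb on chromosome 2, 11 to 16.5 Mb on chromosome 3, 2.5 to 6 Mb on chromosome 4 and 9.5 to 14.5 Mb on chromosome 5. Of the 931 windows with such a score, 18 fell inside an interval and were left out. Positions are on TAIR10, the build in the list's name.

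Chromatin immunoprecipitation and sequencing (ChIP-seq) of SEP3 gave 3 window lists. The A. thaliana list is a re-analysis, by the authors, of earlier samples, with no genotype or tissue given in the sources used here. The other lists come from 2 ChIP libraries of wild-type A. lyrata inflorescences with buds up to stage 10 or 11, made with an antibody to a peptide of the A. thaliana protein. Both followed vernalisation for 7 to 10 weeks, under 16 h of light at 8 °C in replicate 1 and under 12 h of light in replicate 2, whose nights were at 4 °C and days at 8 °C. Bolting was at 18 to 22 °C, and 1 input DNA library from plants grown like replicate 1 served as control. The A. thaliana list has no replicates and gives no read counts, so the depth behind each window is unknown and no difference between windows was tested.

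SEP3 is a MADS-domain transcription factor that acts in floral meristems and in developing flowers. It forms complexes with the other MADS-domain proteins of the floral organ identity programme, and these complexes bind the CArG box, a short A/T-rich element, often at pairs of sites joined by a DNA loop. The chromosome arms of A. thaliana hold most of its genes, whereas the pericentromeric regions are rich in transposons and heterochromatin. The short arms of chromosomes 2 and 4 end in the ribosomal RNA gene clusters, and that of chromosome 4 also carries a heterochromatic knob. The genes beside the windows were not analysed here, so each window is named by its position.

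The score is the authors' own value per window, with no formula given in the sources used here. It ranks windows within the list, and the threshold of 5 means that the whole-list share at or above it, 6.33% (931 of 14707), describes the rule and not a result. Among the 913 strong arm windows the median score was 7.07, the middle range ran from 5.75 to 9.52, and 1 in 10 scored above about 14.2. The set was thus weighted toward its lower limit. Scores under 7 made up 439 windows (48.1%), scores from 7 to under 10 made up 263 (28.8%), scores from 10 to under 20 made up 179 (19.6%), and 32 windows (3.50%) scored 20 or more.

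Near the limit scores were less crowded than in the weak bulk of the list, with 439 arm windows from 5 to under 7 and 377 from 4 to under 5, against 10307 from 1 to under 2. Scores moved in steps of about 0.188, so 5 and 4.81 were adjoining values. Just inside the limit, 63 arm windows scored exactly 5, and just outside it 64 scored 4.81. The first of those inside, in order of position, lay on chromosome 1 from 931627 to 932317 and was 691 bp wide, followed by windows from 1143679 to 1144107 and from 1197627 to 1198420 on the same chromosome. The first outside lay on chromosome 1 from 310100 to 310539, from 2201372 to 2201814 and from 3944860 to 3945313. The 3 inside were 429 to 794 bp wide, against 440 to 454 bp for these 3.

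Most of the strongest sites, like most members, had no other strong summit within 10 kb. The window of highest score, 54.87, had its summit on chromosome 5 at 17550180, and its nearest strong neighbour was 186653 bp away. The next, at 26805635 on the same chromosome, scored 39.44 with the nearest strong summit at 82491 bp, and that at 12941175 on chromosome 2 scored 33.23 with a neighbour at 25429 bp. None of the 10 windows of highest score had another strong summit within 10 kb. Their distances ran from 25429 bp to 204654 bp, the largest being that of the chromosome 4 window at 2234861, which scored 30.03.

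Ranks 11 to 20 held the first sites with close strong neighbours, 3 in number. On chromosome 4 the window from 17408388 to 17410043 (score 26.59) and that from 17398641 to 17399235 (25.14) belonged to 1 locus of 6 strong windows. The window from 18127403 to 18128789 on chromosome 4 (23.82) had a partner of score 7.26 at 2527 bp. The other 17 of the top 20 had no strong summit within 10 kb, as was the case for 677 of all 913 members (74.2%).

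The remaining 7 of these 10 windows were single. On chromosome 4, the window from 16344679 to 16345435 scored 26.45 and that from 8524502 to 8525229 scored 23.25, with strong neighbours at 30072 and 190351 bp. Those on chromosome 5 ran from 3444158 to 3444887 (24.95), from 7721859 to 7722419 (22.88) and from 3160910 to 3161583 (22.31). A window on chromosome 2 from 16391335 to 16392205 scored 25.51, and one on chromosome 1 from 24743791 to 24744558 scored 22.31. Of the 20 strongest windows 8 were on chromosome 4, 7 on chromosome 5, 3 on chromosome 1, 2 on chromosome 2 and 0 on chromosome 3. Among the 100 strongest, chromosome 1 held 27, chromosome 5 22, chromosome 2 20, chromosome 4 18 and chromosome 3 13. Of all 913 members, chromosome 1 held 243, chromosome 5 215, chromosome 2 143, chromosome 4 162 and chromosome 3 150. No difference between chromosomes was tested.

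Strong windows were found on all 10 arms, at 9.55 per Mb over 95.6 Mb (exact 95% Poisson interval 8.94 to 10.2), against 0.766 per Mb (0.454 to 1.21) over the 23.5 Mb of the intervals. Chromosome lengths were taken to the end of the last listed window, and the intervals cover counting error only. On the arms, 6.58% of listed windows were strong (95% Wilson interval 6.18 to 7.00%), against 18 of 825 (2.18%, 1.38 to 3.42%) in the intervals. Weak windows were also denser on the arms, where 145 windows of any score were listed per Mb, against 35.1 in the intervals. Score and position define the set, so these values describe it and carry no test.

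From a score of 5 upward, higher bands had larger shares of their windows on arms. The share was 97.1% from 5 to under 7, 98.5% from 7 to under 10, 99.4% (179 of 180) from 10 to under 20 and 100% (32 of 32; Wilson interval 89.3 to 100%) at 20 or more. The Wilson intervals of the 4 bands overlapped, and that of the first ran from 95.1 to 98.3%. Among windows under 5 the share was 94.1% (12969 of 13776), and arms made up 80.3% of chromosome length. By band, the share under 5 was 93.5% from 1 to under 2 and 96.3% from 2 to under 3. It was 98.2% from 3 to under 4 and 96.9% from 4 to under 5, near that of the lowest member band. The 1 pericentromeric window of score 10 or more lay on chromosome 1 from 17268223 to 17268780.

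By chromosome, both arms together held 243 strong windows on chromosome 1 (9.56 per Mb), 143 on chromosome 2 (9.41), 150 on chromosome 3 (8.35), 162 on chromosome 4 (10.7) and 215 on chromosome 5 (9.79). Single arms spread more widely. The arm after the interval of chromosome 4, at higher coordinates, had 149 strong windows or 11.8 per Mb (Poisson interval 10.0 to 13.9). The arm before it had 13, or 5.20 per Mb (2.77 to 8.89). Of the 45 pairs of arms, 3 had intervals that did not overlap. These were the first chromosome 4 arm against the second and against the chromosome 5 arm before its interval (11.1 per Mb), and the chromosome 3 arm before its interval (8.09 per Mb) against the dense chromosome 4 arm. The first chromosome 4 arm also had fewer windows of any score, 107 per Mb against 154 and 146. Its strong share, 4.85% (Wilson interval 2.86 to 8.12%), overlapped those of the second (7.70%, 6.59 to 8.97%) and of the chromosome 5 arm (7.59%, 6.31 to 9.11%). The chromosome 3 arm had 153 windows of any score per Mb. Its share, 5.30% (4.33 to 6.48%), did not overlap that of the dense chromosome 4 arm.

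**Figure D1:**
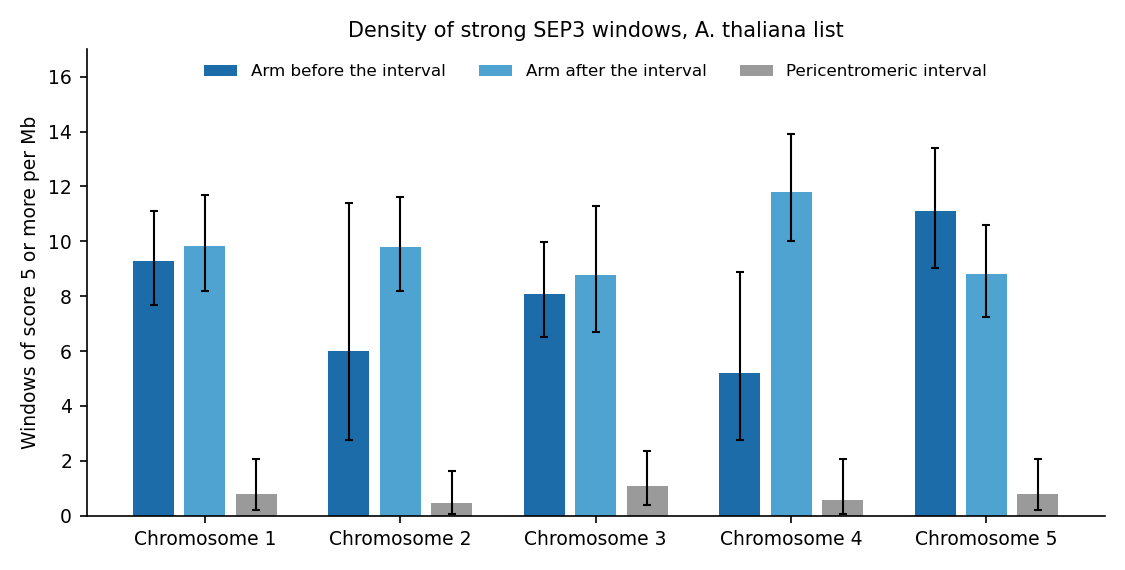
Strong windows (score 5 or more) per Mb in the arm before the interval, the arm after it and the pericentromeric interval of each A. thaliana chromosome; bars are counts over length and error bars exact 95% Poisson intervals. The arms lie between 5.20 and 11.8 per Mb and the intervals between 0.444 and 1.09.

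Every arm held at least 1 window of score above 12. The highest score was 30.22 and 22.31 on the first and second arms of chromosome 1, 12.9 and 33.23 on those of chromosome 2, and 21.37 on both of chromosome 3. It was 30.03 and 28.15 on the arms of chromosome 4 and 30.22 and 54.87 on those of chromosome 5. The chromosome 3 maxima lay from 9865220 to 9865830 and from 19120790 to 19121572. The lowest maximum, on the short arm of chromosome 2, lay from 383055 to 383743. That arm held 9 strong windows, the fewest of any arm.

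Strong windows became denser with distance from the pericentromeric intervals, and windows of any score did so in parallel. Within 1 Mb of an interval border there were 4.50 strong windows per Mb (Poisson interval 3.28 to 6.02), rising over successive distances to 9.50 per Mb (8.05 to 11.1) at 4 to 6 Mb. From 12 to 16 Mb, a distance reached by 5 arms, there were 14.2 per Mb (10.8 to 18.3). Over the same 3 distances all arm windows numbered 79.8, 143 and 205 per Mb. The share of listed windows that were strong stayed between 5.64 and 7.12% over the 8 distance classes.

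**Figure D2:**
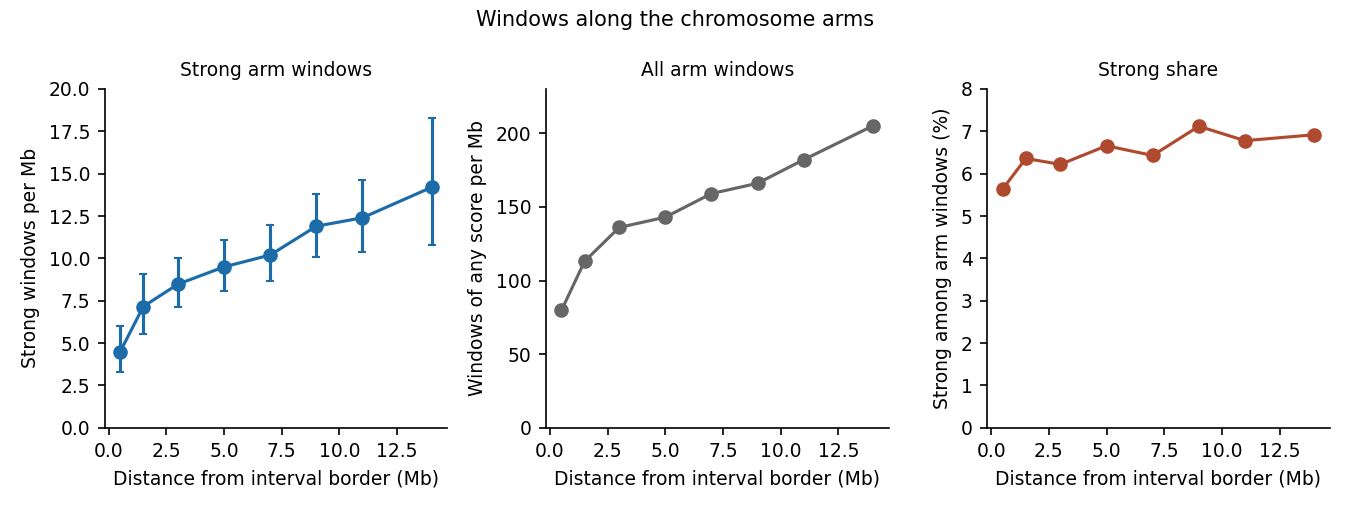
Strong arm windows per Mb with exact 95% Poisson intervals, arm windows of any score per Mb, and the strong share in percent, against distance in Mb from the border of the pericentromeric interval, over all 10 arms. The densities rise from 4.50 to 14.2 and from 79.8 to 205 per Mb, while the share stays between 5.64 and 7.12%.

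The same pattern held within most arms. Distal to the arm midpoint there were 558 strong windows (11.7 per Mb), against 355 (7.43 per Mb) proximal to it. The distal side had more strong windows on 8 of 10 arms and more windows of any score on 10 of 10. The exceptions were the first arm of chromosome 1, with 54 distal and 62 proximal strong windows, and that of chromosome 4, with 6 and 7. The strong share was 6.81% of distal windows (Wilson interval 6.28 to 7.37%), against 6.25% (5.65 to 6.90%) of proximal ones.

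At the chromosome tips density lay between that of the adjoining stretches and that far inside the arms. In the last 1 Mb there were 92 strong windows, 9.20 per Mb (Poisson interval 7.42 to 11.3), against 12.1 per Mb (9.99 to 14.5) at 1 to 2 Mb and 12.5 (10.8 to 14.3) at 2 to 4 Mb from the end, with intervals that overlapped. It was 5.64 per Mb (4.32 to 7.23) at 10 to 12 Mb from the end. All windows were densest in the last Mb, at 179.7 per Mb, against 168 per Mb at 2 to 4 Mb from the end. With fewer strong windows per Mb as well, its strong share was the lowest of the 8 classes, 5.12% against 7.45% at 2 to 4 Mb. The most terminal strong window lay on chromosome 3 from 23429938 to 23430627, scored 5.75 and had its summit 28558 bp from the last listed base.

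At the inner edge, the member nearest to an interval lay on chromosome 1 from 17506286 to 17507114, with its summit 6741 bp outside the border and a score of 5.19. On chromosome 5 the window from 9480290 to 9480786 (7.26) was 19469 bp outside and on chromosome 3 that from 16524224 to 16525328 (8.20) was 25023 bp outside. The chromosome 3 window was also the most isolated member, with 31860 bp to the edge of any other listed window. On the first arm of chromosome 4 the innermost member was the strongest of that arm, the window of score 30.03, at 265139 bp from the border. The largest empty margin was on the second arm of chromosome 2, where the first strong summit came 798277 bp after the interval.

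Strong windows were wider than weak ones. Their median width was 569 bp with a middle range of 496 to 712 bp, against 227 bp (121 to 300 bp) for arm windows under 5 and 498 bp for the 18 strong pericentromeric windows. Together they covered 581 kb, 0.608% of arm length and 15.2% of the length of all listed windows. Width and score come from the same signal, so their relation is a description. Spearman's rho was 0.351 across the 913 strong windows and 0.774 across the 12969 weaker arm windows.

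Median width was 532 bp for scores from 5 to under 7, 570 bp from 7 to under 10, 627 bp from 10 to under 20 and 740 bp at 20 or more. Width also climbed with score below the limit, with a median of 485 bp from 4 to under 5 against 198 bp from 1 to under 2, so there was no step at the limit. Broad windows, over 1000 bp, made up 67 of the 913 (7.34%), against 22 of 12969 weaker arm windows (0.170%), of which 8 of 377 (2.12%) scored 4 to under 5. Among members their share was 2.73% below 7, 8.37% from 7 to under 10 and 15.6% in both bands from 10 upward. Chromosome 1 held 28 of them, or 11.5% of its strong windows, and the other chromosomes 5.12 to 6.79%.

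The widest member spanned 1855 bp on chromosome 4, between 1499588 and 1501442, and scored 21.2. It was followed by a chromosome 1 window from 29765258 to 29766972 (1715 bp, score 15.0) and the chromosome 4 window from 17408388 to 17410043 (1656 bp, 26.59). A further pair lay on chromosome 1, from 363342 to 364893 (1552 bp, 7.63) and from 19848367 to 19849912 (1546 bp, 12.2). Scores of these widest members ran from 7.63 to 26.59. Great width was not limited to such scores, since weaker arm windows reached 1830 bp at scores from 3 to under 4. The widest arm window of score 2 to under 3 spanned 1602 bp.

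The narrowest members had scores near the limit with 1 exception. They were 232 bp on chromosome 4 from 14263538 to 14263769 (5.56), 301 bp on chromosome 3 from 2774935 to 2775235 (5), 329 bp on chromosome 1 from 2547721 to 2548049 (5.19) and 345 bp on chromosome 4 from 12455278 to 12455622 (5). The exception was 337 bp wide, on chromosome 1 from 21251913 to 21252249, and scored 8.01.

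**Figure D3:**
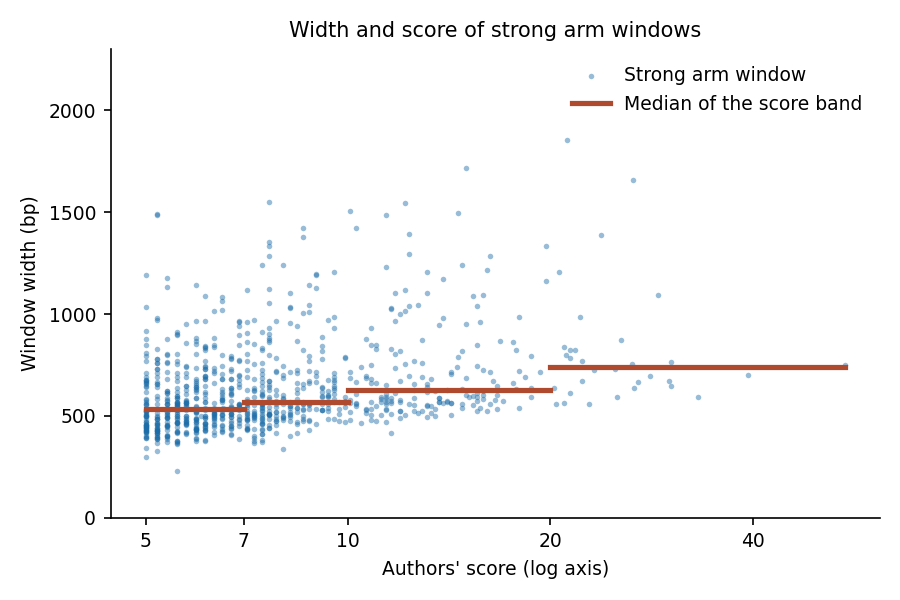
Width in bp of each of the 913 strong arm windows against the authors' score on a log axis, with red lines at the median width of 4 score bands. The medians step up from 532 to 740 bp while single windows range from 232 to 1855 bp.

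The summit of a strong window lay close to its middle. The median distance between summit and window centre was 38.5 bp, and 736 of 913 summits (80.6%) were within 100 bp of the centre. That share was not particular to members. It was 77.2% for all arm windows under 5 and 83.0% for those of score 4 to under 5. Summits of strong windows sat slightly toward the start, at a median of 0.465 of the width, and 595 (65.2%) lay before the centre. For scores of 4 to under 5 that share was 63.7%. No strong window had its summit on its first base, nor did any of the 710 arm windows of score 3 to under 4 or the 377 of score 4 to under 5. Of the 12969 weaker arm windows 6208 (47.9%) did, and 6194 of these scored 1 to under 2. The listed summit is therefore often the edge in that lowest band, and distances to such windows carry an error of up to the weak window's width.

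Pairs and clusters of strong windows were present but most members were single. Neighbouring strong summits on 1 arm lay a median of 64.2 kb apart, with a mean of 101 kb over 903 intervals between them. Another strong summit was within 10 kb of 236 members (25.8%, Wilson interval 23.1 to 28.8%), against 21.0% of the arm windows under 5, 2729 of 12969, that had a strong summit as near. On either side of the limit the shares were alike, 23.7% for scores of 5 to under 7, against 23.6% for 4 to under 5. Another strong summit was within 2 kb of 68 members (7.45%) and within 1 kb of 18 (1.97%), and 142 members (15.6%) had none within 100 kb. The difference between members and weaker windows was not tested, since windows of 1 list are not replicates.

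Among members the share with a strong neighbour did not climb steadily with score. Above the lowest band it was 27.0% from 7 to under 10, 30.7% from 10 to under 20 and 18.8% (6 of 32) at 20 or more, with overlapping Wilson intervals (8.89 to 35.3% for the last). By arm it was lowest on the first arm of chromosome 3, with 12 of 89 (13.5%). It was 34.2% (51 of 149) on the second arm of chromosome 4 and 44.4% on the short arm of chromosome 2, where it rested on 4 of 9 windows.

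With summits within 10 kb joined, the 913 windows formed 784 loci. Of these 677 held 1 strong window, 91 held 2, 13 held 3, and 1 each held 4, 5 and 6. In the 91 pairs the summits were a median of 3593 bp apart, and the median score was 9.33 for the stronger and 6.13 for the weaker partner. Partners were sorted by score within each pair, so a gap between these medians is built in. Both partners scored 10 or more in 6 pairs, while in 39 the stronger did. Over all 913 windows 211 scored 10 or more, and the pairs were not tested against that share. Windows in joined loci had a median score of 7.45 and a median width of 600.5 bp, against 7.07 and 563 bp for single ones.

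The largest locus lay on chromosome 4 from 17389825 to 17410043. Its 6 strong windows spanned 19408 bp between outer summits and scored, in order of position, 8.76, 19.3, 9.52, 25.14, 11.4 and 26.59. It was the only joined locus with 2 of the 20 strongest windows, 10570 bp apart, and 6 windows under 5 lay between its outer edges. Higher and lower scores alternated along it.

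Another locus on chromosome 4, from 13015138 to 13023958, held 5 strong windows over 8174 bp. It scored 21.0 at one end and 14.22 at the other, with 5.56, 8.57 and 7.26 between them. The locus of 4 lay on chromosome 2 from 18810864 to 18823032 and scored 8.95, 6.13, 9.52 and 5.56 over 10992 bp. None of its members reached 10.

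The 13 loci of 3 strong windows spanned 5320 to 14677 bp. The most compact was on chromosome 3 from 977322 to 983205, with scores of 8.20, 6.13 and 10.27. The one of highest score was on chromosome 5 from 3856815 to 3865970, with scores of 21.0, 13.09 and 7.63, the first pair of summits being 871 bp apart. Another 3 held a window scoring above 13, on chromosome 1 from 28366571 to 28379377 (13.66, 5.94 and 5.19) and on chromosome 2 from 13865040 to 13876710 (10.64, 7.26 and 14.78) and from 18480375 to 18493557 (5.19, 7.07 and 15.54).

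Scores within the other loci of 3 were more even. On chromosome 4 the locus from 10380906 to 10395285 scored 12.34, 9.33 and 12.53, and that from 12524044 to 12537159 scored 8.76, 5.75 and 6.32. On chromosome 5 the locus from 3505017 to 3515477 scored 9.14, 11.21 and 9.14, and that from 18946834 to 18958197 scored 5.94, 5.19 and 7.63. In the remaining 4 loci no score exceeded 9.70. On chromosome 1 these ran from 21192115 to 21207308 (highest score 7.63) and from 25985983 to 25997929 (6.50). The chromosome 2 locus ran from 12585424 to 12597306 (9.14), while that on chromosome 3 ran from 4116428 to 4128304 (9.70).

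**Figure D4:**
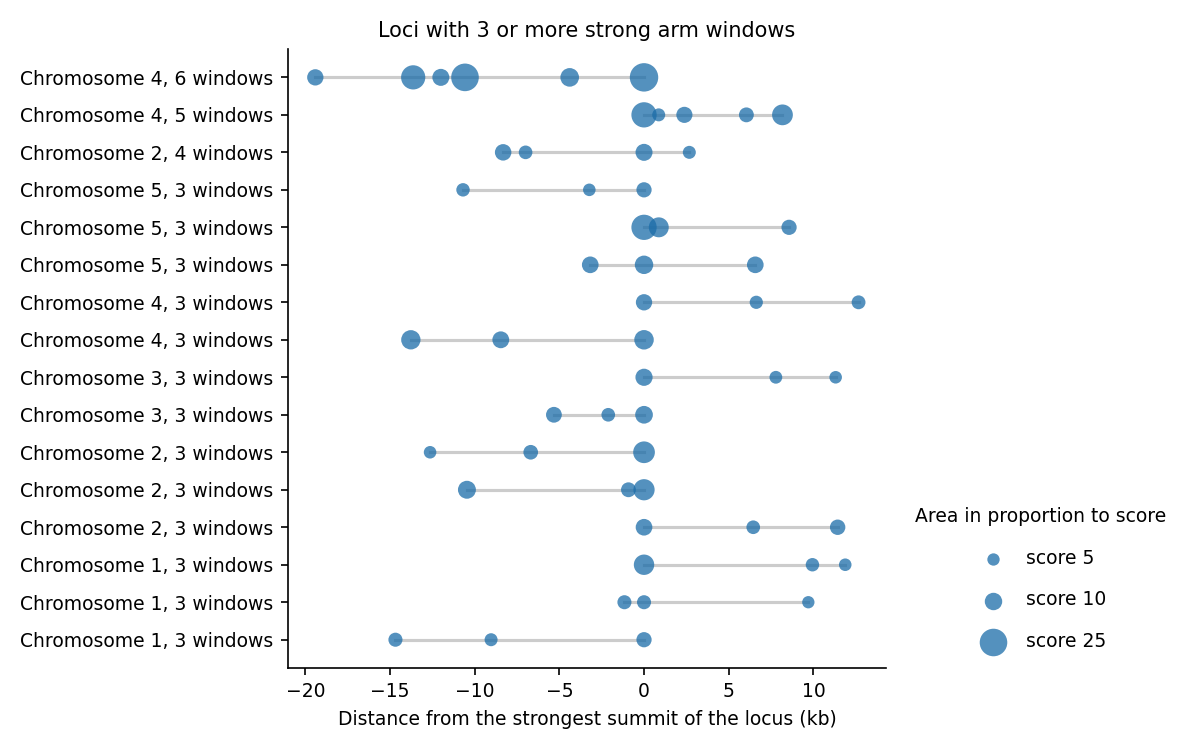
The 16 loci with 3 or more strong arm windows after summits within 10 kb were joined, 1 row per locus; each point is a summit, placed by its distance in kb from the strongest summit of its locus, with area in proportion to score. The 6-window locus on chromosome 4 spans 19.4 kb and the others 5.32 to 14.7 kb.

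The closest strong summits were less than 1 kb apart. On chromosome 4 summits at 14325573 and 14326216 were separated by 643 bp, both with a score of 5, and their windows by 138 bp. On chromosome 3 summits at 20940269 and 20940918 (5.56 and 6.69) were 649 bp apart. No windows anywhere in the list were closer than 100 bp edge to edge, and how the list treats nearer sites is unknown.

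At the other extreme lay long stretches of arm with no strong window. The longest, 798277 bp, was the margin after the interval of chromosome 2. The longest between 2 strong summits followed directly, for 751516 bp on chromosome 2 from 6798277 to 7549793. It held 55 weaker windows, the highest at 4.81, 1 step under the limit. The next was 716888 bp on chromosome 1 between 19849181 and 20566069, with 82 weaker windows and a highest score of 4.62. These stretches were free of strong windows only, not of signal.

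Weaker windows were about as frequent near strong summits as near other weak ones. A window under 5 lay within 2 kb of 484 members (53.0%, Wilson interval 49.8 to 56.2%), against 50.8% of the weaker arm windows that had another such window as near. Within 5 kb the shares were 81.6% of members and 78.1% of weaker windows, while within 1 kb the order turned, with 25.4% of members (22.7 to 28.3%) and 3888 of 12969 weaker windows (Wilson interval 29.2 to 30.8%). Strong windows were wider, with a median of 569 bp against 227 bp, and whether width bears on the shortest distance was not tested. Among members, 429 had no weaker window within 2 kb, 328 had 1, 128 had 2 and 28 had 3 or more, with 5 as the highest number.

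Density beyond 0.5 kb was about alike too. From 0.5 to 1.5 kb from a strong summit there were 0.255 weaker windows per kb, against 0.231 and 0.214 in the nearer and the farther part of that range around all weaker arm windows. Around windows of score 4 to under 5 the figures were 0.257 and 0.263. At 10 to 20 kb they were 0.147 per kb around strong summits, against 0.151 around windows of score 4 to under 5 and 0.148 around all weaker ones. The excess at 0.5 to 1.5 kb was therefore shared by windows on either side of the limit. Within 0.5 kb the densities differed. They were 0.0285 per kb around strong summits, 0.0637 around windows of score 4 to under 5 and 0.132 around all weaker ones. Listed windows lay at least 100 bp apart edge to edge, and median width was 569 bp for strong and 227 bp for weaker windows. A wider window thus leaves less room within 0.5 kb of its summit. How far this sets the order was not tested.

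**Figure D5:**
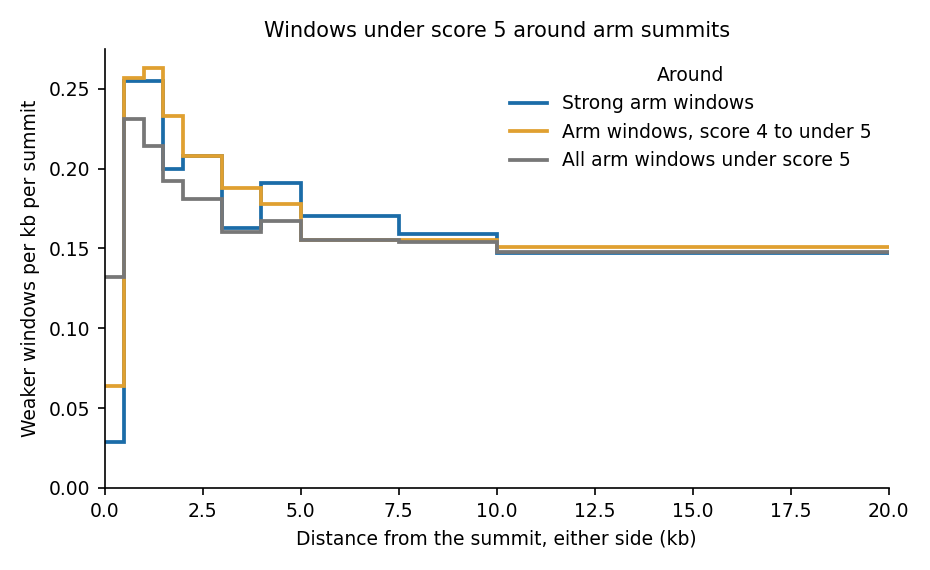
Weaker windows (score under 5) per kb and per summit against distance in kb from the summit, around the 913 strong arm windows, the 377 arm windows of score 4 to under 5 and all 12969 arm windows under 5. All 3 profiles peak between 0.5 and 1.5 kb and settle at 0.147 to 0.151 per kb at 10 to 20 kb. Within 0.5 kb, where a wider window leaves less room for others, they differ, at 0.0285, 0.0637 and 0.132 per kb in that order.

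The weaker windows near members were much like the rest. The 655 within 2 kb of a member had a median score of 1.42 and a median width of 238 bp, against 1.42 and 227 bp for the other 12314 on the arms. A score of 3 or more was reached by 10.1% of those near members and 8.29% of the others. Among the 20 strongest members 14 had a weaker window within 2 kb. The window at 3444461 on chromosome 5 (24.95) had none within 12246 bp, while that at 26805635 (39.44) had 3 within 2 kb.

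The share of a list at a score of 5 or more depends on how many weak windows the list holds. It was 6.33% in the A. thaliana list (931 of 14707), against 1.48% (1388 of 93693) in A. lyrata replicate 1 and 0.791% (510 of 64504) in replicate 2. Per Mb of sequence spanned by each list there were 7.82 such windows in A. thaliana, against 7.08 and 2.60 in replicates 1 and 2. On that scale the 2 A. lyrata libraries differed from each other by more than replicate 1 differed from A. thaliana. The median width was 569 bp for the strong arm windows of A. thaliana. For A. lyrata windows of score 5 or more, without selection by position, it was 1226 bp in replicate 1 and 657 bp in replicate 2. Widths over 1000 bp made up 7.34% of the strong A. thaliana arm windows, against 60.7 and 13.7% of such A. lyrata windows in replicates 1 and 2. The scale of the scores is not known to be shared, the 2 A. lyrata libraries differ from each other by more than replicate 2 differs from A. thaliana in median width, and species cannot be told apart from list.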

How the data were processed

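The lists give windows with start, end, summit, score and length, per the file headers. Scores are values deposited by the authors, with neither formula, aligner nor caller given in the sources used here. CASAVA is named in the submitters' processing notes, without version. Lengths in bp, another deposited column, equalled end minus start plus 1. Members were selected by the stated rule. Members, lists and named windows were chosen with earlier results of these data known. Named were the 20 windows of highest score, the strongest per arm, the 5 widest and narrowest, loci of 3 or more, and windows at the score limit and interval borders. Distances ran from summit to summit. Intervals are 95% Wilson for shares and exact Poisson for densities and cover counting error only. Python 3.11.15, NumPy 2.4.6, pandas 2.3.3 and SciPy 1.17.1 were used. The neighbour functions were tested on simulated data. Genes and CArG boxes beside the windows were planned but not analysed here. The limits, borders and distances were varied, and distance between edges was added after the data were seen.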

Additional observations from a re-analysis of the deposited data

How the results depend on the processing

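Of 48 alternative values, 28 stayed within 1.5 times the count or inside the interval of the reported value. With scores of 4 or more the density was 13.5 per Mb, the median width 551 bp and the share with a strong neighbour 32.6%. With 6 or more these were 6.60 per Mb, 593 bp and 20.1%. With 10 or more, 99.5% of 212 windows were on arms, and these 211 formed 200 loci at 2.21 per Mb, with a median width of 654 bp, a strong neighbour in 9.48% and a median summit position of 0.487 of the width. Fewer windows at a higher limit lower the count, the density and the share with a neighbour by construction. Intervals widened by 0.5 Mb on each side left 96.2% of strong windows on arms, and narrowed ones 99.0%. A strong neighbour lay within 5 kb for 16.5% and within 20 kb for 38.6%. A weaker window lay within 1 kb for 25.4%, within 5 kb for 81.6% and, measured between window edges, within 2 kb for 59.7%.

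Depth is unknown and the list has no replicates, and which windows another library would place above the limit was not tested. No paired analysis was possible because the A. thaliana list is 1 list without samples and the input library has no list of its own here.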

Other observations

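A few strong arm windows had scores between the regular steps of the list. Within a tolerance of 0.0075, 902 of the 913 (98.8%) fell on a step of 0.188, against 99.5% of all listed windows, and 11 did not. The 11 were singled out after their values were seen. They included the chromosome 4 window from 17408388 to 17410043 (26.59), the chromosome 1 window from 8598355 to 8599151 (21.1) and the chromosome 2 windows from 18909008 to 18909587 (16.56) and from 12078146 to 12078815 (16.42). Their median width was 670 bp, against 569 bp for members on a step. The cause was not tested.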
